A study of Mus musculus with 8 samples.

Results

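The transcription factors that make and keep a group 2 innate lymphoid cell (ILC2) were followed through a short stimulation of Piezo1, a mechanically gated cation channel. They were 10 genes, Gata3, Rora, Id2, Bcl11b, Tcf7, Ets1, Gfi1, Zbtb16, Maf and Runx3, chosen by name and read from the rows with those symbols among the 23183 genes listed in every library. All 10 were listed, and 9 had enough counts to be tested. Poly(A) RNA had been sequenced from 8 samples of lung ILC2s in culture, 4 given 5 µM Yoda1, a chemical agonist of Piezo1, for 3 h and 4 given 0.1% DMSO, the vehicle. All samples carried the label C57BL/6, with no engineered allele named. By the study's methods, the cells of both groups came from mice given recombinant IL-33, were enriched with a pan-ILC kit and CD45 beads, and were cultured with IL-2, IL-7 and IL-33, so the controls had also met IL-33. Whether the samples of a group were separate mice, separate cultures or wells of a single culture is not given in the sources used here, and the spread between them may be technical.

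ILC2s are tissue lymphocytes without antigen receptors that release IL-5 and IL-13 when alarmins such as IL-33 reach them. Their identity rests on a small network of transcription factors. Tcf7 (TCF-1), Zbtb16 (PLZF), Ets1, Id2 and Gata3 act as progenitors commit to the innate lymphoid fate, whereas Gata3, Rora, Bcl11b and Gfi1 maintain the mature ILC2, and Maf and Runx3 tune its effector programme and its distance from other lymphoid fates. Id2 acts by binding E proteins and keeping them off DNA.

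After 3 h of Yoda1, 4 of the 9 tested factors differed from the vehicle, by 1.46-fold at most. Gata3, Rora, Id2 and Ets1 did not pass the test, and the 95% interval of each change lay between -6.61% and 10.7%. Gfi1 rose 1.46-fold. Runx3 fell by 11.6%, Maf fell by 8.69% and Tcf7, which was already low, fell by 25.1%. Bcl11b was lower on average, but its groups overlapped and its call depended on the fit. Of the 8 fits that each left out a library, Maf kept its call in 6 and Tcf7 in 7. Gfi1 and Runx3 kept theirs in all 8. Thus 1 of the 9 tested factors rose, 3 fell and 5 did not pass, at a threshold of 0.05 on p-values of the edgeR quasi-likelihood test, adjusted after Benjamini and Hochberg over the 12239 genes tested. In that fit 10.9% of all genes tested were called, 6.04% as higher and 4.84% as lower with Yoda1 (739 and 592 genes). That split moved with the scaling, to 553 and 809 genes by library size alone and to 505 and 958 by upper quartiles. The median log2 fold change of the 9 was -0.023, beside -0.005 for all genes tested. Values below are counts scaled to a common library total (CPM), in the order of replicates 1 to 4, unless another scale is named.

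**Figure D1:**
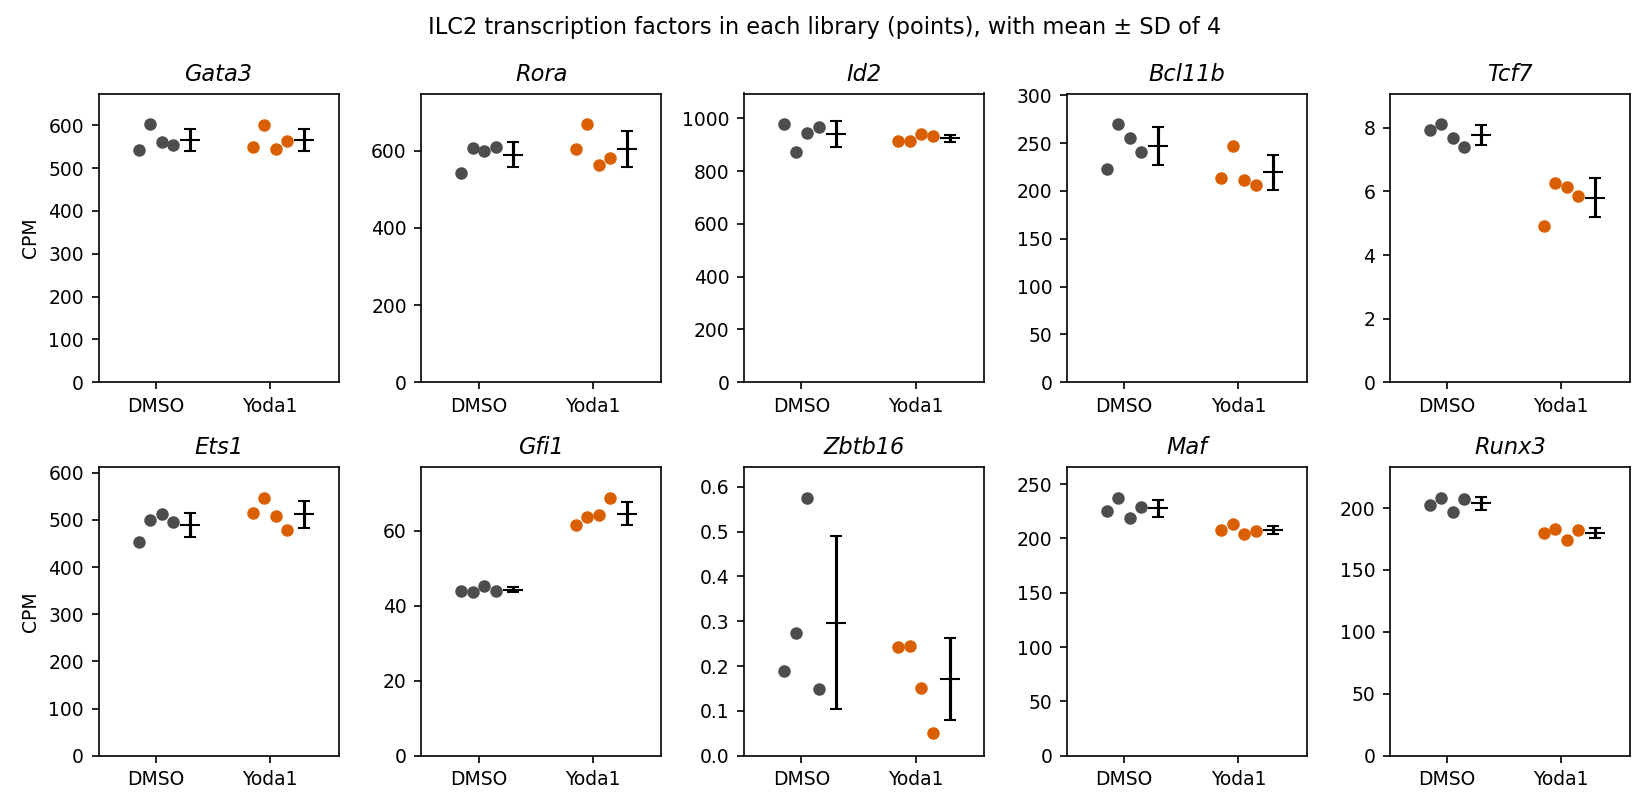
CPM of each of the 10 transcription factors (y axes, each starting at 0) in the 4 DMSO and the 4 Yoda1 libraries (points), with the mean ± SD of each group beside them. The groups stand apart for Gfi1 (43.6 to 45.2 against 61.5 to 68.7), Tcf7, Maf and Runx3, and overlap for the other 6.

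The promoter letters of 3 of these genes are shown because they belong to a factor that rose, a factor that fell and the factor whose group means were equal. Each is the 250 bases before an annotated start in RefSeq (GRCm38.p6), 5′ to 3′ on the gene's strand. Capitals mark matches, on either strand, to the motifs searched, which were the sites of the factors themselves and of calcium-responsive factors: that of GATA factors (AGATAA or AGATAG or TGATAA or TGATAG), ROR (AGGTCA), E box (CANNTG), TCF (CTTTGA), ETS (CCGGAA), RUNX (TGTGGT), MAF (TGCTGA), GFI1 (AAATCA), NFAT (TGGAAA), AP-1 (TGANTCA) and CRE (TGACGTCA).
Gfi1, internal start, chr5:107724344-107724593, minus strand: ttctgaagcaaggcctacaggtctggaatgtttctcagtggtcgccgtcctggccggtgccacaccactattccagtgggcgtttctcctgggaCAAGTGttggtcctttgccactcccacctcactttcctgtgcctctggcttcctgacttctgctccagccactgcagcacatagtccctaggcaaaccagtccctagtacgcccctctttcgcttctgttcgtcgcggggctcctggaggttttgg
Runx3, first start, chr4:135120395-135120644, plus strand: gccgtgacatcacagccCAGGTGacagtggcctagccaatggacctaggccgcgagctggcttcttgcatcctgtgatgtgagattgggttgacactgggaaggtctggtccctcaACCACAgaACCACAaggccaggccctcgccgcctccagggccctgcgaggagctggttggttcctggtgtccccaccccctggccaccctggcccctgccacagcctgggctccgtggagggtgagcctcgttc
Gata3, internal start, chr2:9878601-9878850, minus strand: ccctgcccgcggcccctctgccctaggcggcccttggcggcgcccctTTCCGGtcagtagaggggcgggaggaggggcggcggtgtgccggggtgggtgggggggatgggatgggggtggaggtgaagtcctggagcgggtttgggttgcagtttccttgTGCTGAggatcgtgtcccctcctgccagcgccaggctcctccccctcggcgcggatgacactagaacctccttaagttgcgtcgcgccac
The Gfi1 and Gata3 windows shown lie within their genes and hold no exonic base in GENCODE M21, and the Runx3 window shown lies upstream of the gene.
The Runx3 window shown holds the RUNX letters at a pair of positions, -134 and -126 from the start, 8 bases apart, beside an E box. A window before a later Runx3 start, chr4:135152295-135152544, holds 0 matches to any motif searched. Of all 32851 windows of this length, 14.0% hold the RUNX letters at least once and 1.27% hold them at least 2 times. The Gfi1 window shown holds a single E box, CAAGTG, a motif found in 66.2% of all windows. A window before an earlier Gfi1 start, chr5:107725806-107726055, holds an E box at -42 and a MAF site at -142. The Gata3 window holds an ETS site, found in 12% of windows, and a MAF site, found in 16.1%. Windows were given for 7 of the 10 genes, 10 windows in all, and Ets1, Zbtb16 and Maf had none. None of the 10 windows holds the letters searched for NFAT, AP-1, CRE or the GFI1 core, which occur in 18.6%, 6.75%, 1.55% and 12.4% of all windows. A match is a description of letters, and its absence concerns this stretch alone.

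The levels in DMSO differed widely. The 9 tested factors ran from Tcf7, above 31.8% of genes tested, to Id2, above 99.2%, and Zbtb16 was too low to be tested. Because long transcripts yield more reads, genes were compared per length, as counts per kilobase of exon scaled to a common total (TPM), with exons from GENCODE M21 on GRCm38. In DMSO, Id2 was the most abundant of the 10 at 1336 ± 69.2 TPM (SD, n = 4), above 99.2% of genes tested. Gata3, the zinc finger factor on which type 2 cytokine transcription depends, followed at 492.3 ± 25.2, and Ets1, an early lymphoid factor, at 200.6 ± 13.8. Rora, a nuclear receptor needed for ILC2 development, was at 156.5 ± 10.9 and Runx3 at 141.1 ± 3.75, and the ranges of this pair overlapped over the DMSO libraries. Bcl11b, a zinc finger factor shared with T cells, was at 105.6 ± 9.71 and Maf, a basic leucine zipper factor, at 95.7 ± 3.16, again with overlapping ranges. The other neighbours in the order did not overlap.

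Below these stood Gfi1, a zinc finger repressor, at 48.1 ± 1.5 TPM. Tcf7, the nuclear partner of β-catenin, was at 10.3 ± 0.347 TPM, above 31.8% of genes tested. Zbtb16, a marker of the common helper-like progenitor, was nearly undetected at 0.196 ± 0.131 TPM. Per-length levels lean on the transcript model. With the longest transcript in place of all exons, Bcl11b (78 TPM) and Maf (91.6) exchanged places and the other 8 factors kept their rank.

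**Figure D2:**
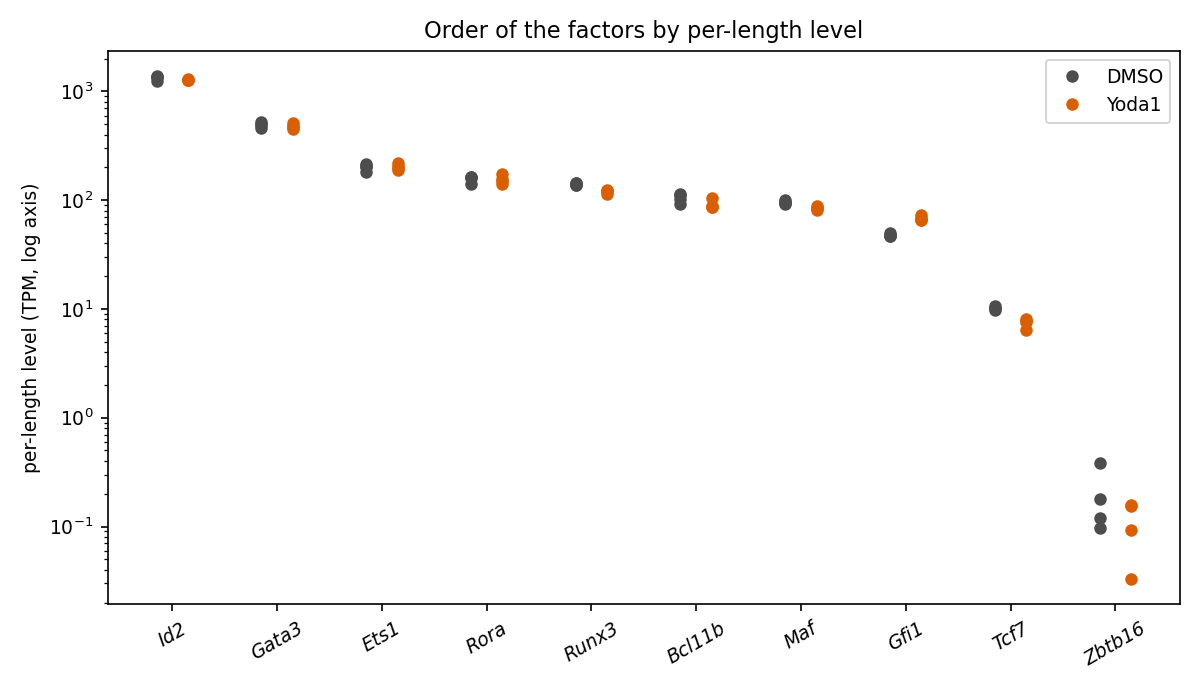
Per-length level (TPM, logarithmic y axis) of the 10 transcription factors in each library, ordered by their DMSO mean. Id2 lies at 1234 TPM or more in every library, Tcf7 at 9.82 to 10.7 TPM in DMSO and 6.35 to 8.14 TPM in Yoda1, and Zbtb16 below 1 TPM.

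Gfi1 was the only one of the 9 called higher. GFI1 recruits histone demethylases and deacetylases to silence genes, and in ILC2s it holds down programmes of other lymphoid cells. In DMSO it was at 44.0, 43.6, 45.2 and 44.0 CPM and in Yoda1 at 61.5, 63.7, 64.1 and 68.7 CPM. All 4 Yoda1 libraries lay above all 4 DMSO libraries, from 595 to 1335 counts a library. The log2 fold change was 0.55 (SE 0.048, 95% interval 0.45 to 0.65, edgeR adjusted p = 1.42e-09), larger in size than that of 97.4% of genes tested. In DMSO its spread, a CV of 1.58%, was below the 3.78% that counting alone gives on average at this depth. Exons of Gfi1 overlap A430072P03Rik on the opposite strand over 101 bases, and since the strand setting of the counting is not given in the sources used here, reads of the pair cannot be told apart there. Its paralog Gfi1b was at 0 in 7 of 8 libraries and had 1 count in the other. The corepressor genes in the GFI1 list gave 0 calls among 3 tested by edgeR, with 1 at an unadjusted p under 0.05, and 0 by DESeq2 or limma-voom.

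Runx3 had the smallest adjusted p of the factors that fell. RUNX3 binds DNA with the partner CBFβ and is better known for cytotoxic and tissue-resident lymphocytes. Its DMSO libraries were at 202.3, 208.2, 196.9 and 207.5 CPM and its Yoda1 libraries at 180.1, 183.4, 174.6 and 181.9 CPM. The groups did not overlap, and the lowest DMSO library exceeded the highest Yoda1 library. The log2 fold change was -0.18 (SE 0.036, 95% interval -0.25 to -0.10, edgeR adjusted p = 0.00111).

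Within the RUNX family the share of Runx3 was lower with Yoda1 as well. On the per-length scale it made up 67.0 ± 1.29% of the summed family in DMSO (SD, n = 4; 66.0% to 68.8%) and 63.1 ± 1.40% in Yoda1 (61.1% to 64.4%). These ranges did not overlap, and they did not with the longest transcript either (means of 62.2% and 58.4%). Runx2 stood at 119.6 ± 6.98 and 131.8 ± 9.24 CPM, a log2 fold change of 0.14 (SE 0.048) that missed the threshold (edgeR adjusted p = 0.058). It passed without DMSO replicate 2 (0.0322) and without Yoda1 replicate 3 (0.0381), and without any other single library it did not, with an adjusted p of up to 0.230. It also passed with no filter on low counts (0.0122) and with each library's trend on transcript length removed (0.00675). Neither Runx1 (log2 fold change -0.083, SE 0.060) nor the partner Cbfb (0.036, SE 0.036) passed.

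Maf fell least of the called factors. c-MAF drives cytokine genes such as Il10 and Il4 in several lymphocytes. It was at 225.0, 237.3, 219.2 and 229.1 CPM in DMSO and at 207.5, 213.2, 203.8 and 207.0 CPM in Yoda1. Every Yoda1 library lay below every DMSO library. The log2 fold change was -0.13 (SE 0.036, 95% interval -0.20 to -0.057, edgeR adjusted p = 0.0162), larger in size than that of 66.7% of genes tested. The call was lost without DMSO replicate 2 (log2 fold change -0.11, edgeR adjusted p = 0.0832) and without Yoda1 replicate 4 (-0.13, 0.0567). The opposite-strand gene Gm15655 overlaps 440 bases of its exons.

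Of the 3 that fell, Tcf7 changed by the largest factor and from the lowest level. Its product TCF-1 opens chromatin in lymphoid progenitors and is needed for ILC2 development. DMSO libraries were at 7.95, 8.11, 7.67 and 7.39 CPM, and Yoda1 libraries at 4.92, 6.27, 6.15 and 5.86 CPM. No Yoda1 library reached the DMSO range, and Yoda1 replicate 1 was the lowest of all 8. The log2 fold change was -0.42 (SE 0.112, 95% interval -0.65 to -0.19, edgeR adjusted p = 0.0134). With 61 to 148 counts a library, counting alone gives a CV of 8.99% in DMSO and 10.5% in Yoda1, and the measured CVs were 4.05% and 10.5%. Without Yoda1 replicate 1 the log2 fold change was -0.36 and the call was lost (edgeR adjusted p = 0.0559).

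Lef1, the close relative of Tcf7 that binds the same letters, also fell. Its level was 64.2 ± 4.37 CPM in DMSO and 48.9 ± 4.16 in Yoda1 (SD, n = 4 each), giving a log2 fold change of -0.39 (SE 0.058, edgeR adjusted p = 3.07e-05), and was called under all 17 alternatives. Per length Lef1 was the larger of the pair in these cells, at 25.3 ± 2.09 TPM in DMSO against 10.3 ± 0.347 for Tcf7. The summed level of the TCF/LEF family was 37.3 ± 2.35 TPM in DMSO and 27.4 ± 2.20 TPM in Yoda1, without overlap. Since both fell, the share of Tcf7 in the family overlapped between the groups (27.6 ± 1.72% and 27.1 ± 1.85%). With the longest transcript that share was 14.8% and 14.5%. Among the corepressors these factors recruit, the Groucho relative Tle3 fell (393.2 ± 19.0 to 340.9 ± 13.7 CPM, log2 fold change -0.21, SE 0.039, edgeR adjusted p = 0.000511). The less abundant Tle4 rose, from 4.90 ± 0.740 to 6.60 ± 0.544 CPM (log2 fold change 0.43, SE 0.129, edgeR adjusted p = 0.0281). The Tle4 call was lost without DMSO replicate 1, Yoda1 replicate 1 or Yoda1 replicate 4, with an adjusted p of up to 0.106, and with DESeq2 (0.0743) or without DMSO replicate 1 and Yoda1 replicate 3 together (0.137).

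**Figure D3:**
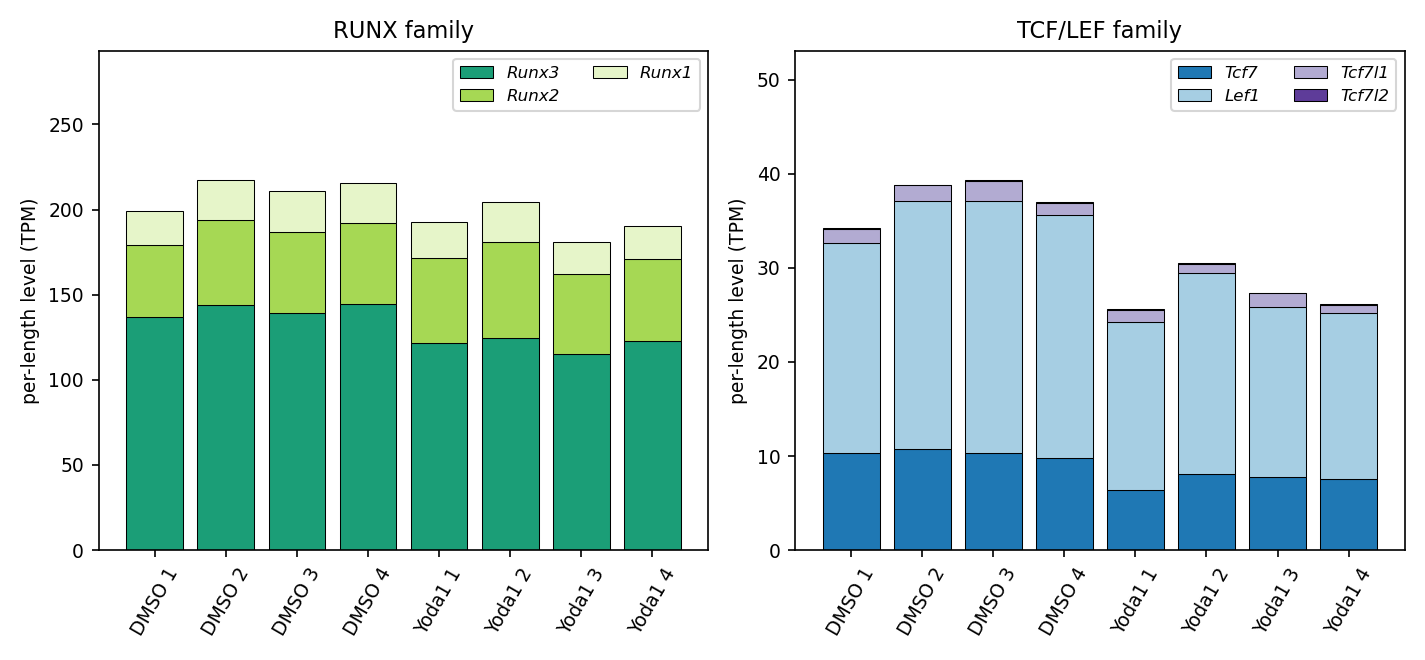
Per-length level (TPM, y axes from 0) of the RUNX family (left) and the TCF/LEF family (right) in each library, stacked by gene. The Runx3 segment is 136.9 to 144.7 TPM in DMSO and 115.1 to 124.8 TPM in Yoda1, and the TCF/LEF bars are lower in every Yoda1 library than in every DMSO library. Group differences on this scale need not equal those in CPM.

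The factors that did not pass included Gata3, for which the groups overlapped throughout. It was at 543.4, 602.1, 560.3 and 553.8 CPM in DMSO and 549.0, 601.2, 545.7 and 563.8 CPM in Yoda1. The group means were equal to 4 digits (564.9 CPM), with a 95% interval of the log2 fold change from -0.079 to 0.079 (edgeR adjusted p = 0.998). Gata3 made up 99.8% to 99.94% of the GATA family per length in DMSO libraries, and Gata1 and Gata2 had at most 8 and 6 counts. Of the cofactors, the LIM-only adaptor Lmo2 fell from 4.56 ± 0.488 to 3.07 ± 0.325 CPM (log2 fold change -0.55, SE 0.152, edgeR adjusted p = 0.0166), a call lost without Yoda1 replicate 3 (0.0502) or without it and DMSO replicate 1 (0.115). Exons of Gata3 overlap 9230102O04Rik on the same strand over 77 bases and Gm13256 on the opposite strand over 155 bases.

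Rora was at 541.7, 608.1, 600.3 and 609.7 CPM in DMSO and 603.7, 668.1, 562.0 and 582.1 CPM in Yoda1. The groups overlapped, with DMSO replicate 1 the lowest and Yoda1 replicate 2 the highest of the 8 (log2 fold change 0.03, SE 0.049, edgeR adjusted p = 0.726). The REV-ERBα gene Nr1d1, whose product competes with RORα for the same sites, rose from 11.3 ± 2.03 to 16.9 ± 0.628 CPM (log2 fold change 0.57, SE 0.097, edgeR adjusted p = 0.000139). It was called without each library in turn.

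Id2 was at 976.9, 870.9, 943.6 and 968.8 CPM in DMSO and 914.0, 912.8, 940.2 and 932.0 CPM in Yoda1. The Yoda1 values lay inside the DMSO range (log2 fold change -0.02, SE 0.037, edgeR adjusted p = 0.752). Of the 5 tested relatives and E proteins in its list, 0 were called by edgeR, DESeq2 or limma-voom, and 0 had an unadjusted p under 0.05. Id4 was at 0 in every library, and Id2 made up 99.3 ± 0.133% of the ID family per length in DMSO.

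Ets1 was at 453.4, 500.4, 511.8 and 495.1 CPM in DMSO and 515.2, 546.8, 507.8 and 477.7 CPM in Yoda1, and the groups overlapped (log2 fold change 0.06, SE 0.041, edgeR adjusted p = 0.369). Ets2, the nearest relative, rose from 18.0 ± 1.37 to 21.7 ± 1.77 CPM (log2 fold change 0.27, SE 0.076, edgeR adjusted p = 0.0217). The Ets2 call was lost without DMSO replicate 3 or 4 or Yoda1 replicate 1 or 2, with an adjusted p of up to 0.0837. Ets1 remained 94.9 ± 0.544% of the pair per length in DMSO and 94.1 ± 0.258% in Yoda1.

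Bcl11b was at 222.8, 269.5, 255.6 and 240.3 CPM in DMSO and 213.4, 247.0, 211.1 and 206.2 CPM in Yoda1. Yoda1 replicate 2 lay inside the DMSO range and the other 3 Yoda1 libraries lay below it. The log2 fold change was -0.17 with a wide error (SE 0.070, 95% interval -0.33 to -0.016, edgeR adjusted p = 0.159). Without Yoda1 replicate 2 it was -0.23 and passed (0.00192), and without DMSO replicate 1 it was -0.22 and passed (0.0192). In both groups its CV, 8.14% and 8.49%, was several times the counting CV of 1.59% and 1.72%. Bcl11b, Rora and Ets1 have more than 8 kb of exon each with all transcripts joined, and the level of long transcripts differed between libraries. Genes were classed by their longest transcript, which has 8111 bases for Bcl11b, 10878 for Rora, 5080 for Ets1 and 6360 for Maf. Ets1 and Maf are therefore not among the longest 10%. Over the longest 10% of genes (6.78 kb or more), the median log2 deviation from the mean of all libraries was lowest in DMSO replicate 1 (-0.092) and Yoda1 replicate 3 (-0.064) and highest in Yoda1 replicate 2 (0.072). DMSO replicate 1 held the lowest DMSO value of Bcl11b, Rora, Ets1 and Gata3, and Yoda1 replicate 2 the highest Yoda1 value of all 4, although Gata3 has only 3978 bases of exon. Yoda1 replicate 3 held the lowest Yoda1 value of Rora and Gata3 but not of Bcl11b and Ets1, which were lowest in Yoda1 replicate 4. Maf, which also has more than 8 kb of exon, had its lowest DMSO value in replicate 3. The part of transcript length in these values was not tested beyond the fits that follow. With each library's length trend removed, the log2 fold change of Bcl11b was -0.17 (SE 0.044) and passed (edgeR adjusted p = 0.0139). Without those low libraries, DMSO replicate 1 and Yoda1 replicate 3, it was -0.20 and did not pass (0.0757). Both of these fits were chosen after the values were seen.

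**Figure D4:**
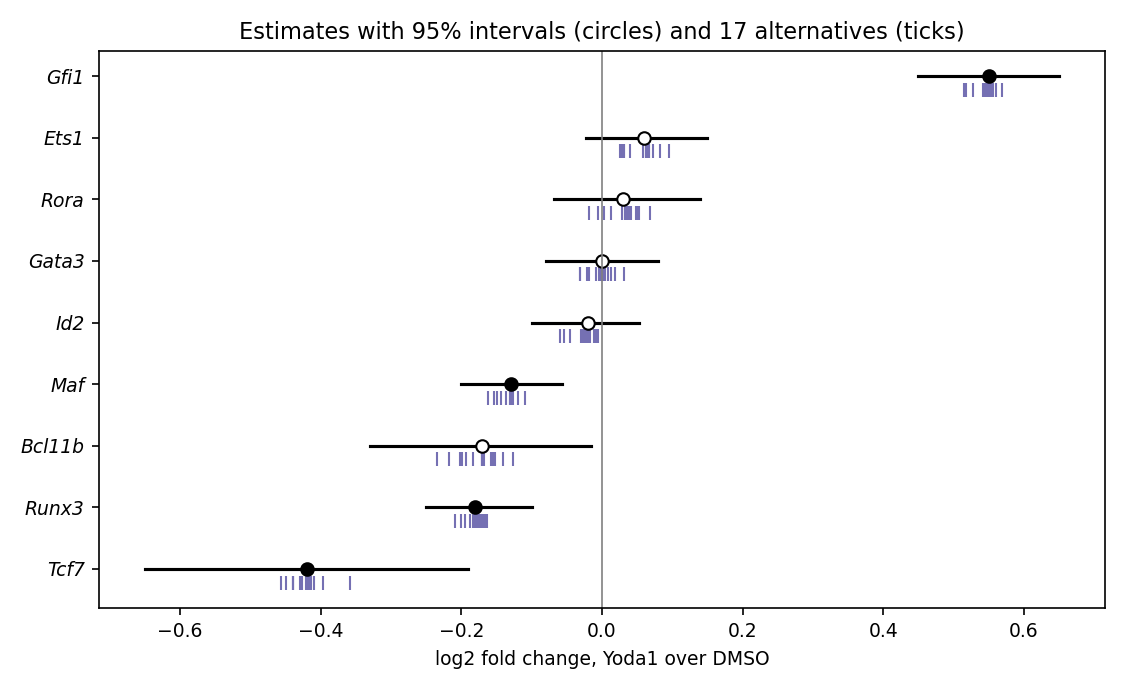
Log2 fold change (x axis) of the 9 tested factors, Yoda1 over DMSO, with 95% intervals; filled circles passed an edgeR adjusted p of 0.05, and ticks below each are the estimates under 17 other settings. All ticks of Gfi1 lie between 0.51 and 0.57, all those of Runx3 between -0.21 and -0.16, and those of Gata3 and Rora fall on both sides of 0.

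Zbtb16 could not be tested. Its counts were 3, 5, 9 and 2 in DMSO and 3, 4, 2 and 1 in Yoda1, so most libraries were within a few reads of the 3-count floor. Summed over libraries, 10 counts in Yoda1 and 19 in DMSO give a ratio of 0.534 with an exact 95% interval of 0.222 to 1.21, which covers counting error only. A difference was not detectable at this depth. Zbtb7b (ThPOK), the related BTB factor of the T helper lineage, was far higher at 60.9 ± 2.40 CPM in DMSO and rose to 68.7 ± 1.85 (log2 fold change 0.18, SE 0.045, edgeR adjusted p = 0.00995), a call lost without DMSO replicate 2 (0.0556). Zbtb32 rose from 79.8 ± 5.74 to 103.0 ± 5.37 CPM (log2 fold change 0.37, SE 0.049, edgeR adjusted p = 4.34e-06). Zbtb7a passed narrowly (log2 fold change 0.12, SE 0.039, edgeR adjusted p = 0.0459) and kept its call in 2 of the 8 fits that left out a library, those without Yoda1 replicate 1 or 4, with an adjusted p of up to 0.152. It also lost the call with library size only (0.101), upper-quartile factors (0.145), limma-voom (0.0605) and without DMSO replicate 1 and Yoda1 replicate 3 together (0.096). In all, edgeR called 3 of the 7 tested BTB factors higher and 0 lower, beside 6.04% and 4.84% of all genes tested, and limma-voom called 2.

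The groups of 4 stood apart, without overlap in CPM, for 4 of the 9 tested factors (exact permutation test, two-sided, p = 0.0286 for each, the smallest that 4 against 4 allow). For comparison, 15.5% of all genes tested stood apart in this way. The other 5 had exact permutation p-values from 0.0857 (Bcl11b) to 1 (Gata3).

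Around the network, 87 relatives, cofactors and other ILC factors were listed and 71 were tested, of which 9 rose, 3 fell and 59 did not pass. That is 16.9% of them, beside the 10.9% of all genes tested. These counts include the relatives already described. Besides those, Maff, a small MAF protein, rose from 10.2 ± 0.830 to 12.5 ± 1.28 CPM (log2 fold change 0.32, SE 0.095, edgeR adjusted p = 0.0293), a call lost without DMSO replicate 2 or 3 or Yoda1 replicate 2 or 4, with an adjusted p of up to 0.132, and with DESeq2 (0.0745). Klf2, a factor of lymphocyte quiescence and exit from tissue, rose from 7.5 ± 0.812 to 12 ± 0.608 CPM (log2 fold change 0.67, SE 0.098, edgeR adjusted p = 1.89e-05). Zeb2 rose from 160.0 ± 10.8 to 184.6 ± 9.96 CPM (log2 fold change 0.21, SE 0.045, edgeR adjusted p = 0.00326). The BCL11 and NuRD list (5 tested) and the RUNX list (3 tested) gave 0 calls by edgeR, DESeq2 or limma-voom, with 0 and 1 genes at an unadjusted p under 0.05.

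**Figure D5:**
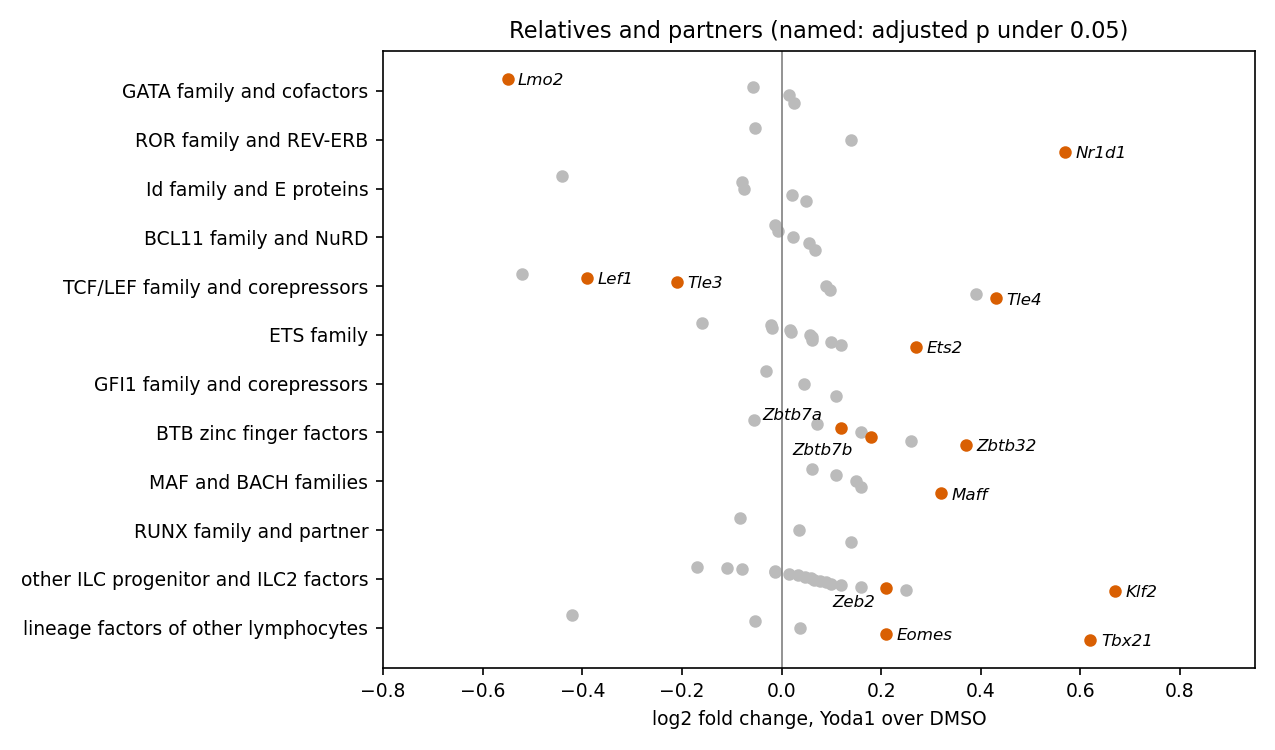
Log2 fold change (x axis, Yoda1 over DMSO) of every tested relative, partner and other lymphoid factor, in rows by list; coloured, named points passed an edgeR adjusted p of 0.05 and grey points did not. Lef1, Tle3 and Lmo2 are the named points left of 0, and Klf2 (0.67) and Tbx21 (0.62) lie farthest right.

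Factors and markers of other lymphocytes moved beside these changes. Tbx21 (T-bet), the master factor of ILC1s and NK cells, rose from 20.9 ± 2.50 to 32.1 ± 1.65 CPM (log2 fold change 0.62, SE 0.072, edgeR adjusted p = 3.86e-07), without overlap. Eomes, its NK cell relative, rose from 37.8 ± 1.82 to 43.8 ± 2.49 CPM (log2 fold change 0.21, SE 0.055, edgeR adjusted p = 0.0111), a call lost without Yoda1 replicate 3 (0.0507) or without it and DMSO replicate 1 (0.0748). Of the 8 NK cell or ILC1 markers, 3 rose, namely Tbx21, Eomes and Prf1, beside 6.04% of all genes tested. Of the receptor genes in the list, Ncr1 and Klrb1c had log2 fold changes of -0.23 (SE 0.174) and -0.21 (SE 0.123). Klrd1 and Klra8 were at 0.13 (SE 0.069) and 0.20 (SE 0.109), and the granzyme gene Gzma was at 0.071 (SE 0.040). None of these genes passed. In all, 6 of the 8 markers lay above 0. Prf1, which encodes perforin, was the most abundant of them at 384.6 ± 22.8 and 423.2 ± 8.85 CPM (log2 fold change 0.14, SE 0.039, edgeR adjusted p = 0.0174), a call lost without DMSO replicate 2 (0.0915) or Yoda1 replicate 4 (0.0607), with upper-quartile factors (0.0625) and without DMSO replicate 1 and Yoda1 replicate 3 together (0.0641). The summed level of this list ran from 808.2 to 893.0 CPM in DMSO and from 868.9 to 938.9 CPM in Yoda1, and the ranges overlapped. Their part in the changes of Gfi1, Runx3, Maf and Tcf7 was not tested. In bulk RNA, fewer cells of a type and less RNA per cell cannot be told apart.

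The label of the cells was checked against their markers. All 20 ILC2 receptors and products were tested, and their summed level was 17571 to 18105 CPM in DMSO and 19977 to 20381 CPM in Yoda1, led by Il13. Of the 20, 10 rose and 3 fell, beside 6.04% and 4.84% of all genes tested. The largest changes were in Csf2 (log2 fold change 0.35, SE 0.041, edgeR adjusted p = 3.36e-07), Arg1 (0.32, SE 0.038, 5.31e-07), Il13 (0.30, SE 0.034, 3.61e-07) and Il9 (-0.29, SE 0.094, 0.0465). Il9 kept its call in 2 of the 8 fits that left out a library, those without DMSO replicate 2 or Yoda1 replicate 3, with an adjusted p of up to 0.173, and lost it with DESeq2 (0.114), limma-voom (0.0581) and without DMSO replicate 1 and Yoda1 replicate 3 together (0.0521). The 10 T cell markers summed to between 142.9 and 161.6 CPM over all libraries, led by Cd3g, with 0 called by edgeR, DESeq2 or limma-voom and 1 at an unadjusted p under 0.05. Markers of B cells, macrophages or dendritic cells, mast cells or basophils, and eosinophils or neutrophils each summed to less than 8 CPM in every library. Their leading genes were Cd79b, Itgam, Cpa3 and Siglecf, and Pax5, Marco, S100a8 and S100a9 were at 0 throughout. Structural lung cell markers summed to between 213.1 and 227.8 CPM, nearly all from Pecam1, while Sftpc and Scgb1a1 were at 0. Of the others in that list, Cdh5 had at most 3 counts a library, and Col1a1, Col1a2 and Pdgfra at most 5 each. Epcam was at 1.65 ± 0.251 CPM in DMSO and 1.58 ± 0.517 in Yoda1.

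Depth was alike between the groups. Library totals ran from 12438009 to 19534653 counts (exact permutation test, two-sided, p = 0.971), and 1 count corresponded to between 0.0512 and 0.0804 CPM. Counts of any pair of libraries in a group disagreed by more than counting noise (chi-square of 2.01 to 6.62 per gene), and none was taken for a copy of another. Genomic positions, in GRCm38 with GENCODE M21, are chr5:107716657-107726036 for Gfi1, chr4:135120652-135177990 for Runx3, chr8:115682942-115707794 for Maf, chr11:52252371-52283014 for Tcf7 and chr12:107910403-108003602 for Bcl11b. Gata3 lies at chr2:9857078-9890034, Rora at chr9:68653786-69388246, Id2 at chr12:25093799-25097140, Ets1 at chr9:32636221-32757820 and Zbtb16 at chr9:48654297-48836222.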

How the data were processed

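Poly(A)-selected RNA of 8 samples of cultured mouse lung ILC2s (4 DMSO, 4 Yoda1) was sequenced from directional libraries. For each sample the authors deposited 1 file of raw counts, whole numbers of reads for every gene symbol. Cufflinks, BBMap, FASTX Trimmer and FastQC appear in the study's methods, and the submitters' processing notes name TopHat and the build mm10. Versions, annotation, counting tool and strand setting are not given in the sources used here.

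Genes were filtered with filterByExpr (minimum count 10, minimum total 15), scaled with TMM and tested in R 4.3.3 with edgeR 4.0.16 (robust quasi-likelihood test, Benjamini-Hochberg over 12239 genes, threshold 0.05). The SE is the absolute log2 fold change divided by the root of F. The 95% interval uses the fit's total degrees of freedom, the residual ones plus those borrowed across genes. CPM used the TMM-scaled totals (factors from 0.988 to 1.01). Per-length levels divided the counts by GENCODE M21 exon length, for the 95.5% of symbols that matched (97.9% of counts). They serve to compare genes and to describe family sums and shares, whereas fold changes and calls come from the TMM-scaled counts. Group differences on the per-length scale need not equal those in CPM. Gata3, equal in CPM, was at 492.3 TPM in DMSO and 478.1 TPM in Yoda1. The interval of the Zbtb16 ratio and the floors (3 counts) cover counting error only, and no molecular identifiers are stated. The other intervals come from the edgeR fit, which includes the spread between libraries. Single values used two-sided exact permutation tests.

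Other settings were limma-voom (limma 3.58.1), DESeq2 1.42.0, a replicate block, scaling by library size alone or by upper quartiles, no filter, at least 10 counts in every library, and each library left out. A removed length trend, and the omission of DMSO replicate 1 with Yoda1 replicate 3, were added after the data were seen. The fits were checked on simulated counts with known changes. Those changes were larger than the falls of Maf, Runx3 and Tcf7 and were planted only in genes more abundant than Tcf7. The check therefore does not cover these 3 falls. The members and lists were chosen with earlier results of these data known. All 10 members are named, the paralogs by family, the called genes of each other list (the 4 largest where more than 4), and the leading and absent genes of the marker lists. Proteins were not analysed here. Some relatives of the members are not reported here.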

Additional observations from a re-analysis of the deposited data

Results flagged for a closer look

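Of 60 groups of 4 libraries examined for a single sample far from the others (the 10 factors and 20 further genes named here, in each group), 1 passed Dixon's 95% critical value for 4 samples, where chance gives about 1 in 20. Rora in DMSO replicate 1 was at 541.7 CPM, the nearest DMSO library was at 600.3 CPM, and the gap took 0.86 of the range of the group. The same library had the lowest level of long transcripts (a median log2 deviation of -0.092), whose part in this value was not tested. Without it the log2 fold change of Rora was -0.005 (edgeR adjusted p = 0.958), against 0.03 with all libraries.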

How the results depend on the processing

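Gfi1 and Runx3 kept their direction and their call under all 17 alternatives. Tcf7 kept its call under 16, Maf under 15 and Bcl11b gained one under 5. Besides the fits given above, Bcl11b passed with no filter on low counts (edgeR adjusted p = 0.000538). Estimates of Gata3 changed sign with library size only (-0.021), upper-quartile factors (-0.031) and without the pair of libraries low in long transcripts (-0.001). The first pair of scalings moved the median of all genes from -0.005 to -0.027 and -0.036, about as far as Gata3. Leaving out 1 library gave from -0.031 to 0.032 for Gata3 and from -0.018 to 0.068 for Rora, and neither was called in any fit. Over all genes, 1331 were called (739 higher, 592 lower); DESeq2 called 625 higher and 372 lower, library size only 553 and 809, and upper-quartile factors 505 and 958. Leaving out 1 library gave 367 to 677 lower genes, the fewest without DMSO replicate 2 (367) and Yoda1 replicate 4 (374). No pairing by replicate number was seen, as the deviations of same-numbered libraries correlated between -0.0277 and 0.0711. Low correlations cannot show that the samples were unpaired. With the replicate block 966 genes were called, and among the factors Bcl11b was added (adjusted p = 0.0176); the calls of Tle4 (0.0577), Maff (0.0689), Zbtb7a (0.0661) and Il9 (0.0538) were lost.
With library size only, 4 factors again stood apart between the groups, and with the longest transcripts 8 factors still made up more than 50% of their family in DMSO. Zbtb16 and Tcf7 are limited by depth, with at most 9 and 148 counts a library.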
